A study of Mus musculus with 18 samples.

Results

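Lung messenger RNA of BMSC-treated mice was compared with that of control mice. BMSCs are the mesenchymal stem cells that the series tested in a mouse model of chronic obstructive pulmonary disease (COPD), the smoke-related destruction of airways and alveoli. The comparison was chosen by group and used 6 of the 9 mRNA libraries, out of 18 samples in the series: BMSC-treated 1, 2 and 3 and control 1, 2 and 3. Per the labels, BMSC-treated mice had the COPD model, made by cigarette smoke exposure plus intraperitoneal cigarette smoke extract, and were given 4000000 BMSCs with 100 µl of phosphate-buffered saline through the tail vein. Control mice had no smoke or extract and received saline. The groups therefore differ in smoke and in BMSCs together, and the effects of these cannot be told apart here. Strain, sex, age, length of exposure, the hour at which lungs were taken and any pooling of animals are not stated in the labels. No label ties a library to its own mouse. The tests therefore weigh differences against the scatter among these 6 libraries, part of which may be technical.

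Each gene is described both by its level in the 6 libraries and by the 3 within-number differences, BMSC-treated minus control. Deviations from the group means correlated between the libraries numbered 1 (0.614) and between those numbered 3 (0.501). For number 2 (0.167) the correlations did not single out the pair, which therefore rests on its number only. Several gene systems in the lung recur in these results. The circadian clock is a transcription loop in which CLOCK (or NPAS2) and BMAL1, the product of Arntl, switch on Per, Cry, Nr1d1, Nr1d2, Dbp, Tef and Ciart, whose products act back on the loop or on its outputs. In mouse tissues the transcripts of Arntl, Npas2, Clock and Nfil3 peak at a time of day far from that of Dbp and Nr1d1. HSP90 and HSP70 chaperones fold other proteins and are switched on by the heat shock factor HSF1. MHC class II molecules present peptides to CD4 T cells, and granzymes are the killing enzymes of cytotoxic T and natural killer (NK) cells.

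No gene passed the test. Among 10650 genes tested, which reached 1 FPKM (fragments per kilobase of transcript, scaled to library size) in 3 or more of the 6 libraries, limma called 0 higher and 0 lower at an adjusted p under 0.05 (0% in each direction, smallest adjusted p = 0.999919). At an unadjusted p under 0.05, 11 genes were higher (0.103%) and 5 were lower (0.0469%). With the replicate number as a block, 0 passed again, with a smallest adjusted p of 0.280 for Dbp, but 136 genes were higher (1.28%) and 332 lower (3.12%) at an unadjusted p under 0.05. All 3 within-number differences were above 0 for 510 genes (4.79%) and below 0 for 2321 (21.8%). Of the gene lists, clock outputs were mostly higher in BMSC-treated lungs and HSP90-type chaperones mostly lower. MHC class II genes and cytotoxic T and NK cell genes were mostly higher within numbers 2 and 3. None of these was past the test.

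The libraries numbered 1 stood apart from the other 4. Mitochondrially encoded genes held 92.2% of the FPKM in BMSC-treated 1 and 89.3% in control 1, against 46.9% to 70.8% in the others. These 2 libraries also listed 1193 and 1038 genes at 0, against 109 to 201. The mitochondrial share averaged 72.9% ± 18.4 in BMSC-treated and 67.1% ± 21.2 in control lungs (SD, n = 3 each). It was 2.99, 5.71 and 8.71 percentage points higher within numbers 1, 2 and 3 (exact permutation p = 0.7, two-sided, and exact paired p = 0.25, the smallest that 3 pairs allow). FPKM is scaled to the library, so this share sets the level of all other genes. Over the genes tested the median log2 change was -0.11, and 31.7% of them lay above 0, whereas median-of-ratios scaling moved the median by 0.11 to 0.00 and put 50.1% above 0. All changes are read against that median. The lung label was met by its defining markers: Sftpc, the surfactant protein of alveolar type 2 cells, stood at 614 to 1606 FPKM in BMSC-treated and 712 to 1873 FPKM in control lungs. Ager, of alveolar type 1 cells, lay at 14.7 to 40.3 FPKM in BMSC-treated and 23.0 to 37.3 FPKM in control lungs. Pecam1, of endothelium, lay at 2.92 to 29.2 FPKM in BMSC-treated and 8.79 to 20.9 FPKM in control lungs.

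The clock list held 18 genes, of which 16 were tested and 0 passed. All 3 within-number differences were above 0 for 9 members (Dbp, Tef, Ciart, Nr1d1, Nr1d2, Per2, Per3, Bhlhe40 and Bhlhe41), against 4.79% of all genes tested, and below 0 for 2 (Nfil3 and Clock), against 21.8%. With median-of-ratios scaling these counts were 10 and 2, against 11.7% and 13.4% of all genes. The list median was a log2 change of 0.73, against -0.11 for all genes tested. In the blocked fit, 9 members were higher and 2 lower at an unadjusted p under 0.05, against 1.28% and 3.12% of all genes. The list was chosen with earlier results on Dbp and Tef known, so its direction is not independent evidence.

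Dbp encodes a PAR-domain transcription factor that carries clock rhythm to output genes through D-box sites (chromosome 7, 45705100 to 45710203, mm10). It stood at 8.80, 33.6 and 57.7 FPKM in BMSC-treated 1, 2 and 3 and at 0.693, 3.28 and 12.2 FPKM in control 1, 2 and 3. Each BMSC-treated library exceeded its same-numbered control, although BMSC-treated 1 lay below control 3, so the groups overlap. The within-number log2 differences were 2.53, 3.01 and 2.15, and the log2 change was 2.57 ± 0.90 (SE). Sphk2, which overlaps Dbp in the annotation, reached only 0.653 to 3.84 FPKM in BMSC-treated and 0.908 to 5.51 FPKM in control lungs. Tef, the sister factor of Dbp, was listed at 0.315, 9.37 and 19.9 FPKM in BMSC-treated and 0.0533, 0.481 and 9.79 FPKM in control lungs, a log2 change of 1.36 ± 0.79 (SE). Hlf, the remaining member of that family, stood at 0.988, 3.20 and 5.73 FPKM in BMSC-treated lungs against 1.56, 0.570 and 1.74 FPKM in control lungs, so number 1 ran against the others.

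Ciart encodes a repressor of CLOCK and BMAL1. It stood at 0.481, 6.26 and 9.15 FPKM in BMSC-treated and 0.445, 0.252 and 2.28 FPKM in control lungs, with within-number log2 differences of 0.03, 2.54 and 1.63 and a log2 change of 1.40 ± 0.70 (SE). Nr1d1 and Nr1d2 encode the REV-ERB nuclear receptors, which repress Arntl and Nfil3. Nr1d1 was 5.88, 32.7 and 41.5 FPKM in BMSC-treated and 1.88, 19.2 and 28.2 FPKM in control lungs. Nr1d2 was 2.85, 18.2 and 28.3 FPKM in BMSC-treated and 1.70, 5.42 and 16.8 FPKM in control lungs. Their log2 changes were 0.85 ± 0.93 and 0.93 ± 0.89 (SE), smaller than those of Dbp and with groups that overlap. The same holds for the period genes, with log2 changes of 0.64 ± 0.75 for Per2 and 0.67 ± 0.78 for Per3. Bhlhe40 and Bhlhe41, repressors at E-boxes, had log2 changes of 1.05 ± 0.84 and 0.78 ± 0.70 (SE).

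Nfil3, Clock and Arntl were lower within all 3 numbers. Nfil3, the repressor that competes with DBP at D-boxes (chromosome 13, 52967209 to 52982878), stood at 0.959, 1.42 and 2.36 FPKM in BMSC-treated and 2.68, 5.62 and 5.67 FPKM in control lungs. Every BMSC-treated value was below every control value, with within-number differences of -0.91, -1.46 and -0.99 and a log2 change of -1.12 ± 0.77 (SE). Clock was 0.428, 2.27 and 1.06 FPKM in BMSC-treated and 1.39, 3.00 and 4.22 FPKM in control lungs, a log2 change of -0.79 ± 0.68 (SE), with groups that overlap. Arntl and Npas2 were below the filter and were not tested. Arntl was listed at 0.182, 0.175 and 0.284 FPKM in BMSC-treated and 0.317, 2.05 and 1.67 FPKM in control lungs, with no overlap. Npas2 was listed at 0.348, 0.800 and 0.796 FPKM in BMSC-treated and 0.249, 3.42 and 2.78 FPKM in control lungs, lower within numbers 2 and 3 only. The cryptochromes Cry1 and Cry2 and the nuclear receptor Rora had differences of mixed sign.

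**Figure D1:**
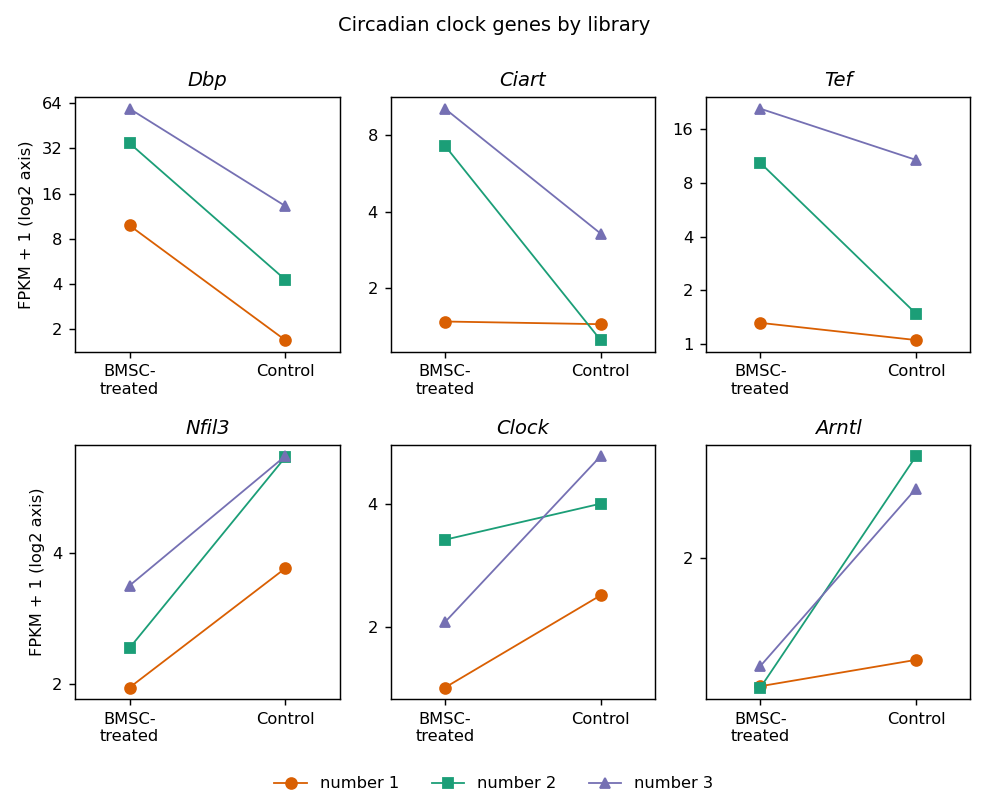
FPKM + 1 on a log2 axis for 6 clock genes in the 3 BMSC-treated (left) and 3 control (right) libraries, with a line joining libraries of the same number; axis ranges differ between panels. The Dbp lines run almost in parallel, with log2 differences of 2.53, 3.01 and 2.15, while the control values of Nfil3 and Arntl all lie above the BMSC-treated ones.

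**Figure D2:**
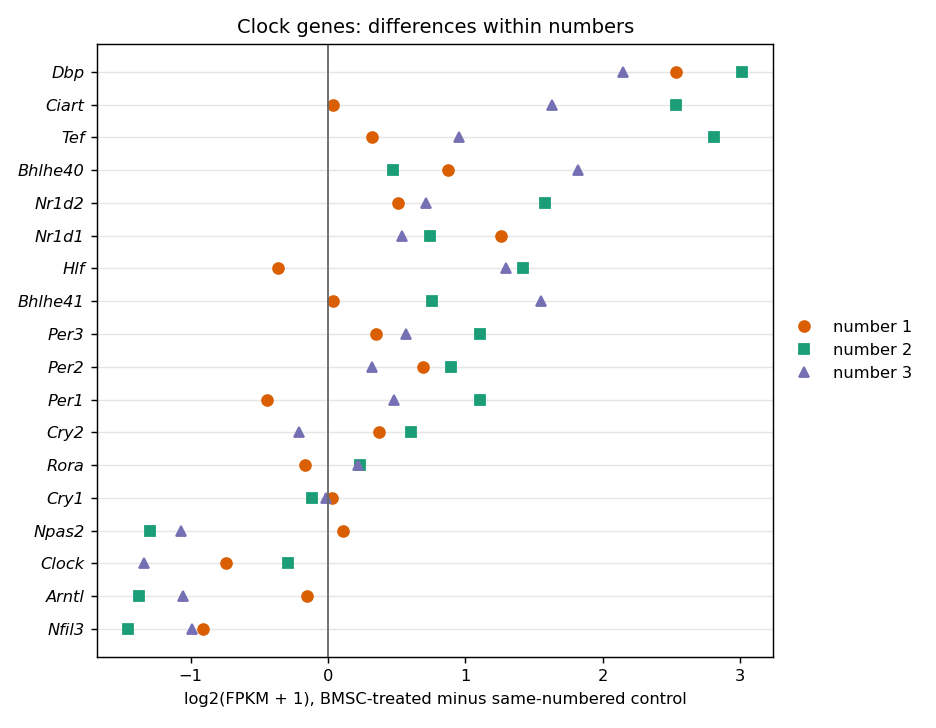
Within-number differences in log2(FPKM + 1), BMSC-treated minus control, for the 18 clock genes, ordered by their mean; 1 point per number. Points of Dbp, Ciart and Tef lie right of 0 in all 3 numbers and those of Clock, Arntl and Nfil3 left of 0, while Hlf, Per1, Cry1, Cry2, Rora and Npas2 have points on both sides; Arntl and Npas2 were below the filter and not tested.

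To show the sequence context of the clock genes, promoter windows from RefSeq (build GRCm38.p6, the 250 bases before a transcription start) were searched for the E-box CACGTG, which CLOCK and BMAL1 bind and which reads the same on both strands, and for the D-box forms TTATGTAA and TTACGTAA on both strands. Of the 18 clock genes, 16 had a window, 21 windows in all. The E-box was in 6 of these windows (28.6%), those of Bhlhe41, Ciart, Cry1, Per1 and Tef, against 6.02% of all 32851 windows. Of these 5 genes, Cry1 and Per1 had within-number differences of mixed sign. The D-box TTATGTAA was in the window of Per3, against 0.819% of all windows, and TTACGTAA was in none of the 21, against 0.113%. A match is a run of letters, not a bound site. The windows of Ciart (chr3:95882229-95882478, minus strand) and Tef (chr15:81802423-81802672, plus strand) are shown with the E-box in capitals, 3 matches and 1 match, and that of Per3 (chr4:151044666-151044915, minus strand) with its 2 D-box matches in capitals, each 5′ to 3′ on the strand of the gene.
Ciart: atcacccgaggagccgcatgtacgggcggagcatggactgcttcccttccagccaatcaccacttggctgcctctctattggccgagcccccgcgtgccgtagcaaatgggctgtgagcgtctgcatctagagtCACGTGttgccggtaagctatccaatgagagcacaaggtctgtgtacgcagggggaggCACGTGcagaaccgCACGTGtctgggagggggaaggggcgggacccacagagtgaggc
Tef: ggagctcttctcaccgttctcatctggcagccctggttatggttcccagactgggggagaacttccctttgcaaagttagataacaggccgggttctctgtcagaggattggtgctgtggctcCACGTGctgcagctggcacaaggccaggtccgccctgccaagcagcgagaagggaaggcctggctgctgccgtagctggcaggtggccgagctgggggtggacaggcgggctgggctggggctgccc
Per3: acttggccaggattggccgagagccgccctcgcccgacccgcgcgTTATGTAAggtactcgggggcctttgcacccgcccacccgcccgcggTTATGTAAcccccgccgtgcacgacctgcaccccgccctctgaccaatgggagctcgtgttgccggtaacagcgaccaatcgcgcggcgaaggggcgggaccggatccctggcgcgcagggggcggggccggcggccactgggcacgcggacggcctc

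Chaperone genes of the heat shock list lay lower in BMSC-treated lungs, beyond the shift of all genes within numbers 2 and 3. All 16 members were tested and 0 passed. All 3 within-number differences were below 0 for 8 members, against 21.8% of all genes, and above 0 for 0. With median-of-ratios scaling the counts were 5 and 1, against 13.4% and 11.7%. The list medians within numbers 1, 2 and 3 were -0.31, -0.79 and -0.80, against -0.29, -0.02 and -0.02 for all genes, and within number 1 the list median was 0.02 with median-of-ratios scaling, against 0.00 for all genes. The list median was a log2 change of -0.56, and 7 members were lower at an unadjusted p under 0.05 in the blocked fit, against 3.12% of all genes. HSP90 genes, the constitutive HSP70 and cochaperones made up the lower part, whereas the classical stress-induced genes Hspa1a and Dnajb1 had differences of mixed sign. Hspa1a stood at 0.0330, 1.14 and 3.31 FPKM in BMSC-treated and 0.145, 1.03 and 4.60 FPKM in control lungs, and Dnajb1 at 1.30, 3.99 and 6.86 FPKM in BMSC-treated and 1.33, 4.30 and 5.81 FPKM in control lungs.

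Hsph1 encodes HSP110, which exchanges nucleotide on HSP70 (chromosome 5, 149616843 to 149636498). It was 0.892, 2.87 and 5.06 FPKM in BMSC-treated and 0.805, 18.6 and 27.0 FPKM in control lungs. Numbers 2 and 3 differed by -2.34 and -2.21 on the log2 scale and number 1 by 0.07, for a log2 change of -1.49 ± 0.85 (SE). Stip1, the cochaperone that hands clients from HSP70 to HSP90, was 3.78, 12.8 and 22.4 FPKM in BMSC-treated and 8.66, 36.6 and 52.3 FPKM in control lungs. Its 3 differences were alike, at -1.01, -1.45 and -1.18, and its log2 change was -1.22 ± 0.93 (SE). Hsp90aa1, the inducible cytosolic HSP90, was 22.5, 62.3 and 67.2 FPKM in BMSC-treated and 28.1, 172 and 245 FPKM in control lungs, a log2 change of -1.20 ± 0.94 (SE). The groups overlapped for each of these genes, and both number 1 libraries had low values. Hsp90ab1, the constitutive HSP90, Hspa8, the constitutive HSP70, and Hspd1, the mitochondrial chaperonin, had log2 changes of -0.83 ± 0.90, -0.96 ± 0.94 and -1.03 ± 0.94 (SE), each lower within all 3 numbers. Dnaja1, an HSP40 cochaperone, and Hspb1, the small HSP27, were also lower within all 3 numbers, with log2 changes of -0.66 ± 0.90 and -0.71 ± 0.95 (SE).

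**Figure D3:**
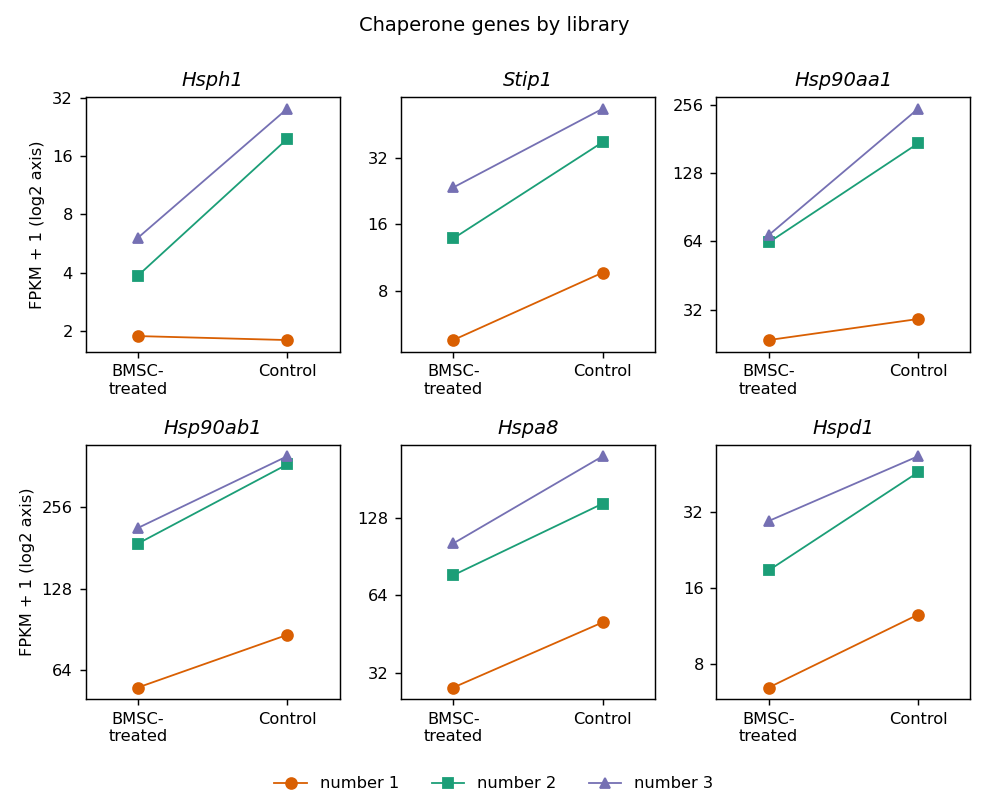
FPKM + 1 on a log2 axis for 6 chaperone genes in the 3 BMSC-treated (left) and 3 control (right) libraries, joined by number; axis ranges differ between panels. Control levels lie above the same-numbered BMSC-treated ones in every pair except number 1 of Hsph1, where the difference is 0.07.

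The heat shock element written as GAANNTTC, which reads the same on both strands, was in 6 of 17 promoter windows of 12 heat shock genes (35.3%), against 6.69% of all windows. The matches lay at Dnaja1, Hspb1 and Hspd1, which were lower within all 3 numbers, and at Hspa1a, Hspa1b and Hspe1, which were not.

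The unfolded protein and integrated stress list lay nearer to the background than the heat shock list. Of its 17 genes tested 0 passed, and 7 were lower within all 3 numbers, against 21.8% of all genes. With median-of-ratios scaling 3 were lower, against 13.4%. Asns, asparagine synthetase, had a log2 change of -0.71 ± 0.77 (SE), and Manf, a secreted factor of the endoplasmic reticulum, -0.64 ± 0.90 (SE). Of 15 immediate early genes tested 0 passed, and 6 were lower within all 3 numbers, or 5 with median-of-ratios scaling, against the same 21.8% and 13.4%. The immediate early list medians within numbers 1, 2 and 3 were -0.89, 0.19 and -0.58, so number 2 ran the other way. Fos, the AP-1 subunit, was 2.88, 4.11 and 5.01 FPKM in BMSC-treated and 4.87, 8.78 and 10.3 FPKM in control lungs, a log2 change of -0.82 ± 0.85 (SE). Btg2, an antiproliferative gene, was lower within all 3 numbers (log2 change -0.89 ± 0.94, SE), and Egr1, a zinc finger factor, within numbers 1 and 3 (-0.65 ± 0.90, SE). Cdkn1a, the p21 cell cycle inhibitor, was 3.38, 11.8 and 11.8 FPKM in BMSC-treated and 8.89, 29.9 and 15.6 FPKM in control lungs, lower within each number.

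Antigen presentation genes were higher in BMSC-treated lungs, chiefly within numbers 2 and 3. Of 8 MHC class II genes 7 were tested and 0 passed. All 7 were higher within numbers 2 and 3, against 26.5% of all genes. Within all 3 numbers 4 were higher, against 4.79% of all genes, or 7 with median-of-ratios scaling, against 11.7%. Cd74, the invariant chain, stood at 106, 288 and 628 FPKM in BMSC-treated and 86.9, 175 and 155 FPKM in control lungs. The highest value was that of BMSC-treated 3, and the log2 change was 1.01 ± 0.89 (SE). H2-Aa was 42.3, 155 and 308 FPKM in BMSC-treated and 44.8, 72.6 and 149 FPKM in control lungs. H2-Aa, H2-Ab1 and H2-Eb1, the chains of the classical class II molecules, had nearly equal log2 changes of 0.68 ± 0.93, 0.68 ± 0.94 and 0.67 ± 0.92 (SE), and H2-Oa, of the peptide-loading inhibitor H2-O, had 0.82 ± 0.80 (SE). Ciita, the class II transactivator, was below the filter, at 0.223, 0.671 and 1.05 FPKM in BMSC-treated and 0.247, 0.158 and 0.172 FPKM in control lungs. In bulk tissue, a change in the number of cells of a type and a change in RNA per cell cannot be told apart.

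The T and NK cell list showed the same arrangement by number. Of its 20 genes 18 were listed, 12 tested and 0 passed, and 11 were higher within numbers 2 and 3, against 26.5% of all genes. Their summed level was 16.0, 99.7 and 197 FPKM in BMSC-treated and 22.4, 17.4 and 67.1 FPKM in control lungs, so the groups overlapped through BMSC-treated 1. Cd3d, Nkg7, Prf1 and Klrb1c were listed at 0 in BMSC-treated 1, Cd8b1, Cd4, Lck and Prf1 in control 1, Cd8a, Klrb1c and Ncr1 in control 2, and Ncr1 in control 3. Gzma, granzyme A, was 2.03, 9.44 and 44.2 FPKM in BMSC-treated and 4.70, 1.56 and 5.84 FPKM in control lungs, with within-number differences of -0.91, 2.03 and 2.72. Gzmb, granzyme B, was 0.344, 2.67 and 6.00 FPKM in BMSC-treated and 0.304, 0.159 and 1.32 FPKM in control lungs, a log2 change of 1.10 ± 0.57 (SE). Ccl5, a chemokine of activated T and NK cells, was 6.41, 37.4 and 63.4 FPKM in BMSC-treated and 8.66, 7.62 and 15.3 FPKM in control lungs. It lay far above control within numbers 2 and 3 (2.15 and 1.98) and below it within number 1 (-0.38). Nkg7, a granule membrane protein, had within-number differences of -0.97, 2.50 and 1.24.

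Cd8b1 and Cd8a encode the CD8 coreceptor of cytotoxic T cells. Cd8b1 was 1.23, 10.2 and 10.7 FPKM in BMSC-treated and 0, 0.308 and 7.10 FPKM in control lungs, higher within all 3 numbers, with a log2 change of 1.60 ± 0.78 (SE). Cd8a was 0.107, 4.58 and 3.27 FPKM in BMSC-treated and 0.119, 0 and 2.15 FPKM in control lungs. The pan-T gene Cd3e did not follow, at 2.31, 2.36 and 2.17 FPKM in BMSC-treated and 2.31, 0.446 and 2.38 FPKM in control lungs. Ctsw, a protease of cytotoxic lymphocytes, had a log2 change of 1.23 ± 0.58 (SE). Fibp overlaps Ctsw in the annotation and could share its reads. It stood at 1.17, 4.81 and 6.51 FPKM in BMSC-treated and 2.15, 3.43 and 6.37 FPKM in control lungs. Klra4, a Ly49 receptor of NK cells whose reads may be shared with its paralogs, had a log2 change of 1.07 ± 0.61 (SE).

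**Figure D4:**
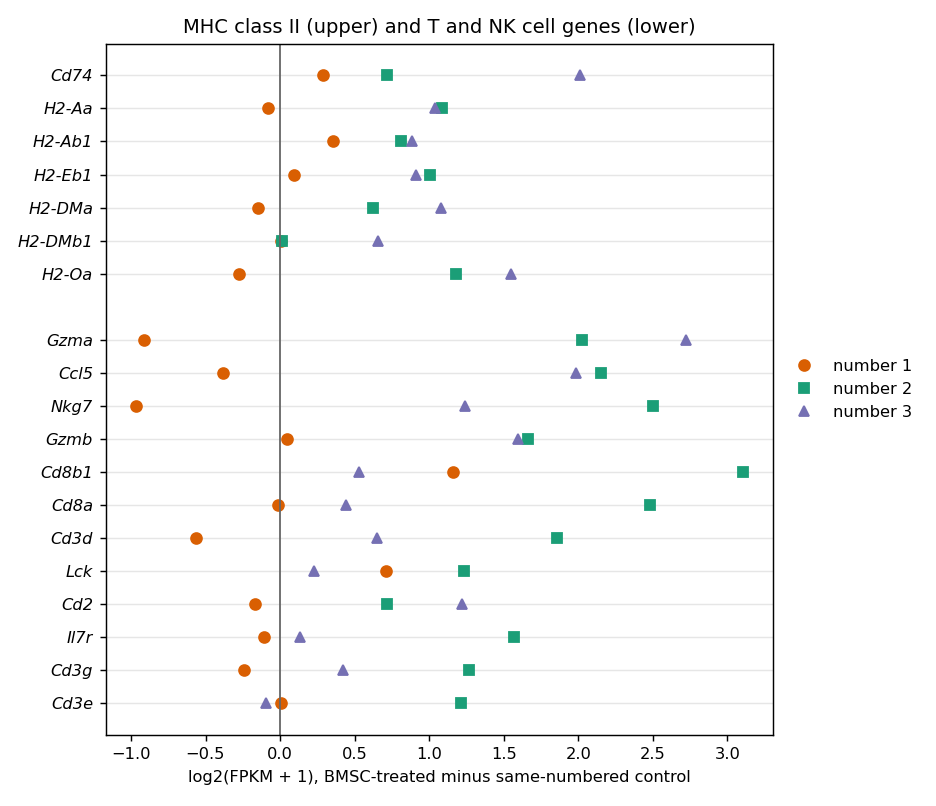
Within-number differences in log2(FPKM + 1), BMSC-treated minus control, for the 7 tested MHC class II genes (upper block) and the 12 tested T and NK cell genes (lower block). Points of numbers 2 and 3 lie right of 0 for every gene except Cd3e, whose number 3 lies at -0.09, and those of number 1 lie on both sides.

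Cytokine and chemokine genes differed in direction. Of 18 tested 0 passed, with 6 higher and 2 lower within all 3 numbers, against 4.79% and 21.8% of all genes. The interferon-inducible chemokines that attract T cells were among the higher ones: Cxcl10 was 7.67, 4.09 and 2.83 FPKM in BMSC-treated and 4.01, 1.47 and 1.30 FPKM in control lungs, and Cxcl9 was 4.90, 4.33 and 1.53 FPKM in BMSC-treated and 2.52, 1.04 and 1.14 FPKM in control lungs. Their log2 changes were 0.86 ± 0.79 and 0.79 ± 0.73 (SE), and here number 1 had the highest level in each group. Art3 overlaps Cxcl10 in the annotation and could share its reads. It stood at 0.827, 7.13 and 4.99 FPKM in BMSC-treated and 1.50, 2.04 and 4.01 FPKM in control lungs. Ccl17, a chemokine of dendritic cells, and Tslp, an epithelial cytokine, had log2 changes of 0.88 ± 0.90 and 0.83 ± 0.67 (SE). Cxcl13, which attracts B cells, lay the other way, at 1.87, 3.14 and 2.09 FPKM in BMSC-treated and 2.71, 9.42 and 4.13 FPKM in control lungs, a log2 change of -0.81 ± 0.81 (SE). Ccl4, below the filter, was listed at 0.710, 1.06 and 4.18 FPKM in BMSC-treated and 0, 0 and 0.286 FPKM in control lungs, with no overlap. Interferon-stimulated genes as a list had a median log2 change of 0.22 over 19 genes. Within all 3 numbers 1 was higher and 1 lower, against 4.79% and 21.8% of all genes. With median-of-ratios scaling the counts were 5 and 1, against 11.7% and 13.4%.

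Over all genes tested, Nfil3 included, groups did not overlap for 15 genes with a higher level (0.141%) and 39 with a lower one (0.366%). Of these, 4 of the higher and 5 of the lower reached the filter of 1 FPKM in the libraries of a single group only, so their separation was fixed by the filter. Sp1, Rbp7, Tiam1 and Ovca2 are among these 9, and their values are given as a description. Sp1, a general zinc finger activator of GC-rich promoters (chromosome 15, 102406316 to 102436404), was 1.38, 6.36 and 6.48 FPKM in BMSC-treated and 0.308, 0.192 and 0.309 FPKM in control lungs. All 3 control values were below the lowest BMSC-treated one, and the log2 change was 2.0 ± 0.63 (SE). Rbp7, a cytosolic retinol-binding protein of endothelium and fat (chromosome 4, 149449687 to 149466462), was 0.545, 0.147 and 0 FPKM in BMSC-treated and 4.33, 3.09 and 6.15 FPKM in control lungs. It was lower within each number, with differences of -1.79, -1.84 and -2.84, with a log2 change of -2.15 ± 0.64 (SE). Its blocked adjusted p was 0.343. Chtf8, a subunit of a clamp loader for sister chromatid cohesion (chromosome 8, 106883863 to 106893593), was 2.51, 0.202 and 1.25 FPKM in BMSC-treated and 3.00, 8.17 and 10.9 FPKM in control lungs, a log2 change of -1.84 ± 0.79 (SE). Derpc overlaps Chtf8 in the annotation and could share its reads.

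Among the other genes without overlap, the lower ones included Tiam1, an activator of the GTPase RAC1, at 0.268, 0.487 and 0.796 FPKM in BMSC-treated and 1.06, 2.27 and 3.43 FPKM in control lungs (log2 change -1.05 ± 0.56, SE). Ovca2, Grrp1 and Mier1 were lower as well, with log2 changes of -0.93 ± 0.53, -1.0 ± 0.81 and -0.93 ± 0.73 (SE). As given above, the separation of Tiam1 and of Ovca2 was fixed by the filter. The higher ones included Fabp1, a fatty acid-binding protein, at 2.81, 5.00 and 2.96 FPKM in BMSC-treated and 0, 2.78 and 0.885 FPKM in control lungs (1.22 ± 0.70, SE). Fkbp1b, a regulator of ryanodine receptor calcium channels, and Ly6i, a GPI-anchored surface protein, had log2 changes of 1.04 ± 0.60 and 1.03 ± 0.65 (SE), and control 1 was listed at 0 for each. Several genes overlapped in level but differed alike within each number. Pcp4, a calmodulin-binding peptide, differed by 1.36, 1.87 and 0.97. Rasl11a, a small GTPase of the RAS family, differed by -0.84, -1.52 and -1.66, and Ppp1r37, a phosphatase regulator, by -1.29, -0.95 and -1.01. Slc38a5, a glutamine transporter, Emid1, a matrix protein, and Serpina3g, a protease inhibitor, had log2 changes of 1.15 ± 0.74, 1.08 ± 0.63 and 1.01 ± 0.73 (SE).

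Genes of the epithelium and matrix that were lower within all 3 numbers included secreted products. Eln, tropoelastin, the protein lost from alveolar walls in emphysema, stood at 0.465, 4.69 and 3.48 FPKM in BMSC-treated and 2.34, 7.90 and 21.7 FPKM in control lungs. BMSC-treated 2 and 3 lay above control 1, so the groups overlapped, and the log2 change was -1.39 ± 0.84 (SE). The wider fibroblast and matrix list did not follow Eln: its median was 0.32 over 21 genes. Hp, the haemoglobin-binding protein haptoglobin, was 92.5, 261 and 371 FPKM in BMSC-treated and 150, 626 and 1009 FPKM in control lungs, a log2 change of -1.13 ± 0.85 (SE). Sftpb, the surfactant protein needed to form surface film, and Cxcl15, a lung epithelial chemokine, had log2 changes of -0.78 ± 0.86 and -0.95 ± 0.93 (SE). In the alveolar type 2 list 8 of 16 genes were lower within all 3 numbers, against 21.8% of all genes, but 2 with median-of-ratios scaling, against 13.4%, and 0 passed.

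Genes that earlier results on these data had named in the COPD model were set side by side. Scgb1a1, the club cell secretoglobin, held 1.32%, 6.19% and 6.27% of the FPKM in BMSC-treated and 1.02%, 10.5% and 19.03% in control lungs. The means were 4.60% ± 2.83 in BMSC-treated and 10.2% ± 9.01 in control lungs (SD, n = 3 each; exact permutation p = 0.5, two-sided, smallest possible 0.1), and the difference of -5.59 percentage points became -1.17 without control 3. Plagl1, a zinc finger growth regulator below the filter, was listed at 0.617, 2.04 and 3.27 FPKM in BMSC-treated and 0.302, 0.527 and 0.327 FPKM in control lungs, with no overlap. Ptgs2, the prostaglandin synthase COX-2, was 0.931, 0.709 and 1.61 FPKM in BMSC-treated and 0.910, 2.88 and 6.95 FPKM in control lungs, a log2 change of -0.93 ± 0.68 (SE). Arrb1, beta-arrestin 1, was 1.57, 0.514 and 0.319 FPKM in BMSC-treated and 4.96, 5.62 and 1.13 FPKM in control lungs, a log2 change of -1.34 ± 0.67 (SE). Maml2, a Notch coactivator, was higher within numbers 2 and 3, by 1.53 each, and had a difference of -0.48 within number 1. Of the mitochondrially encoded genes, 7 of 13 were higher within all 3 numbers, against 4.79% of all genes, or 10 with median-of-ratios scaling, against 11.7%, and 0 passed. These genes held 46.9% to 92.2% of the FPKM of a library, so this count is not independent of the mitochondrial share given above. mt-Nd3, a subunit of respiratory complex I, differed by 0.61, 0.24 and 0.76.

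Genes that answer to smoke were of interest because the groups differ in smoke exposure as well as in BMSCs. The NRF2 transcription factor switches on antioxidant genes, and the aryl hydrocarbon receptor switches on enzymes that act on smoke hydrocarbons. Of 18 NRF2 targets tested 0 passed, with 1 higher and 6 lower within all 3 numbers, against 4.79% and 21.8% of all genes. With median-of-ratios scaling 3 were lower, against 13.4%, and the median log2 change of -0.16 became 0.00. Nqo1, a quinone reductase and a target of both factors, was the higher one, at 2.19, 4.84 and 7.83 FPKM in BMSC-treated and 1.19, 4.14 and 6.42 FPKM in control lungs. Hmox1, haem oxygenase 1, was among the lower ones, at 2.15, 7.50 and 7.99 FPKM in BMSC-treated and 3.22, 8.37 and 13.6 FPKM in control lungs. These genes were chosen after their values were seen, and the groups overlapped for both. Of 9 aryl hydrocarbon receptor genes and 19 genes of xenobiotic metabolism tested 0 passed, with median log2 changes of -0.32 and -0.21, against -0.11 for all genes. Surface markers used for mesenchymal stem cells, which lung fibroblasts and vessel cells also express, had a median of 0.13 over 13 genes, of which 0 passed. Of these markers 2 were higher and 2 lower within all 3 numbers, against 4.79% and 21.8% of all genes. With median-of-ratios scaling the counts were 5 and 1, against 11.7% and 13.4%. Ciliated cell genes had list medians of 0.46, -0.30 and -0.38 within numbers 1, 2 and 3, and 15 of 19 were lower within both of the last pairs, against 31% of all genes. Foxj1, the master regulator of motile cilia, was 3.42, 36.7 and 78.8 FPKM in BMSC-treated and 1.33, 45.5 and 80.2 FPKM in control lungs, lowest in both number 1 libraries.

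Several cell type lists had opposite signs in different numbers, so a group mean hides what the pairs show. Neutrophil genes were lower within numbers 1 and 2 and higher within number 3, with list medians of -1.28, -1.51 and 0.69. S100a8, an alarmin subunit of neutrophil cytosol, was 61.1, 63.2 and 96.6 FPKM in BMSC-treated and 331, 297 and 54.1 FPKM in control lungs, and S100a9 and Retnlg followed it. Control 3 was the lowest control for these genes. Smooth muscle genes had list medians of -0.57, 2.21 and -0.35. Acta2, smooth muscle actin, was 14.9, 150 and 131 FPKM in BMSC-treated and 39.4, 19.7 and 216 FPKM in control lungs, with control 2 near the number 1 libraries. Summed B and plasma cell genes were 14.5, 108 and 276 FPKM in BMSC-treated and 18.3, 130 and 96.9 FPKM in control lungs, highest in BMSC-treated 3.

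Airway secretory genes also followed single libraries. Bpifa1, an antimicrobial protein of upper airway epithelium, was 13.4, 83.1 and 1525 FPKM in BMSC-treated and 4.24, 731 and 103 FPKM in control lungs. Ltf, lactoferrin, was 5.23, 7.22 and 250 FPKM in BMSC-treated and 1.30, 107 and 15.0 FPKM in control lungs, the same ordering. Myh6, a myosin of the cardiac muscle sleeve that a piece of mouse lung can hold, was 1.71 to 11.5 FPKM in BMSC-treated libraries and 40.8 FPKM in control 2, against 0.832 and 1.20 FPKM in the other controls. Whether the amount of airway, vessel or heart muscle in each lung piece had a part in the differences above was not tested.

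**Figure D5:**
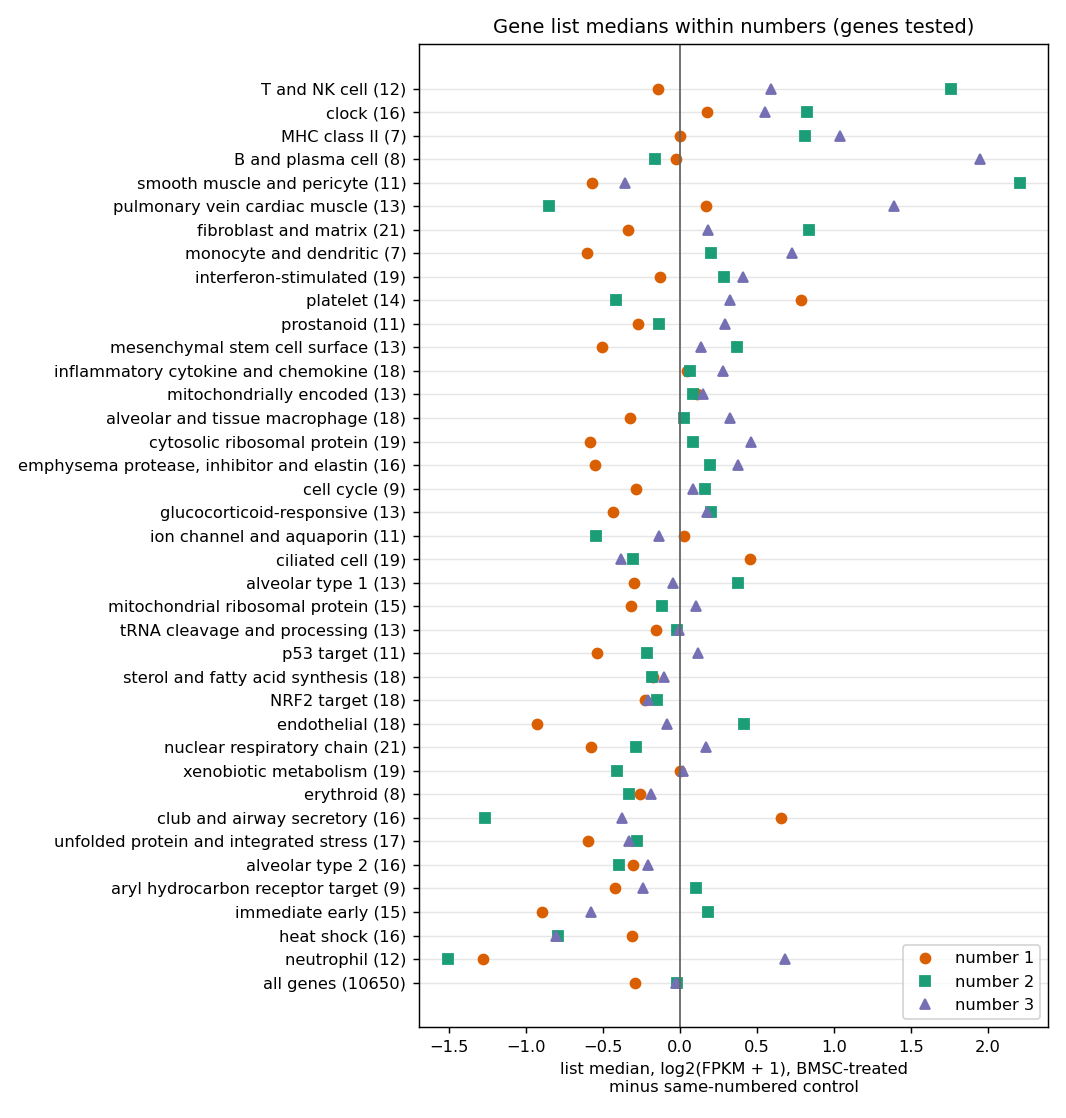
Median within-number difference in log2(FPKM + 1), BMSC-treated minus control, for the 38 gene lists with at least 7 genes tested (number of genes in brackets) and for all genes; 1 point per number. The heat shock points of numbers 2 and 3 lie well left of those of all genes, with number 1 at -0.31 against -0.29 for all genes, the clock list lies right of 0 in each number, and the neutrophil, smooth muscle and B cell points are spread across 0.

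When both libraries numbered 1 were left out, 43 genes passed in the unblocked fit of 2 against 2 libraries, 34 higher (0.319%) and 9 lower (0.0845%), whereas 0 passed with the block. Of the 16 clock genes, Dbp, Tef and Ciart passed, higher, with log2 changes of 2.58 ± 0.47, 1.88 ± 0.46 and 2.08 ± 0.45 (SE) and limma adjusted p of 7.68e-05, 0.0205 and 0.00224. Of the T and NK list 5 of 12 passed, all higher (Gzma, Gzmb, Nkg7, Ccl5 and Cd8b1). Of the 7 MHC class II genes of the list 0 passed. H2-DMb2, a class II gene outside the list and chosen here after its values were seen, passed as higher (limma adjusted p = 0.0404). It stood at 2.23, 5.37 and 18.1 FPKM in BMSC-treated and 3.50, 1.73 and 2.93 FPKM in control lungs, lower within number 1 (-0.48). Chtf8 passed as lower, with an adjusted p of 5.99e-06. Sp1, higher, and Rbp7, lower, were also among the 43, but each met the filter only through the group where it was high, so their p is not given as support. Hsph1 was the 1 chaperone of 16 to pass, as lower (-2.28 ± 0.47, SE, adjusted p = 0.000928). Genes of smooth muscle, mesenchyme and heart passed as higher too, chosen here after their values were seen: Cnn1, a calponin, Itga8, an integrin, Foxf2, a mesenchymal transcription factor, Gucy1a3, a guanylate cyclase subunit, Trpc6, a cation channel, and Nppa, the atrial peptide. Cnn1 was 2.01, 33.7 and 25.7 FPKM in BMSC-treated and 5.54, 1.77 and 27.8 FPKM in control lungs. The summed smooth muscle genes were 50.8, 458 and 394 FPKM in BMSC-treated and 109, 85.7 and 563 FPKM in control lungs, so control 2 was low among the libraries numbered 2 and 3. The part of smooth muscle in the 43 calls was not tested. Other genes among the 43 included Cadm1, an adhesion molecule, at 2.03, 12.3 and 10.5 FPKM in BMSC-treated and 2.62, 1.07 and 1.91 FPKM in control lungs. Smtnl2, a smoothelin-like protein, was higher (log2 change 2.14 ± 0.45, SE), and Pttg1ip, a binding partner of securin, Kcnj15, a potassium channel, and Zfp260, a zinc finger factor, were lower (-2.52 ± 0.47, -1.91 ± 0.46 and -1.77 ± 0.42, SE). With 2 libraries a group these values rest on 4 libraries and on a spread shared across genes.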

How the data were processed

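The 6 libraries were poly(A) mRNA of lung, made from 1.5 µg of total RNA each, per the labels' protocols. The values are FPKM per the file headers: the authors scaled reads to transcript length and to library size before they were deposited. The submitters' processing notes name FastQC, cutadapt, StringTie and Bowtie with mm10, without versions or roles. FPKM carries no depth. A search of values under 0.3 FPKM for steps of whole reads found no clear set (49 of 892 genes shared 1 ratio in number 1, 7 of 138 in number 2 and 5 of 66 in number 3), so depth is unknown and no count test was run. The table lists 13384 genes, each with a group mean of at least 0.500 FPKM. No value column was left unassigned.

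Values were put on a log2(FPKM + 1) scale. The limma model (version 3.58.1, R 4.3.3) used an intensity-dependent prior variance, and a Benjamini-Hochberg adjusted p under 0.05 over the 10650 genes tested made a call. Changes on this scale understate those of low genes. Shares were compared by exact permutation tests. Groups and numbers come from the labels, which do not say what a number marks. Deviations from the group means correlated between same-numbered libraries at 0.614, 0.167 and 0.501 over genes, so the numbers were taken as pairs, and fits with the number as a block were run beside the unblocked one. BMSC-treated 2 correlated with control 3 (0.170) as much as with control 2 (0.167). Control 2 correlated more with BMSC-treated 3 (0.295), so the correlations do not single out the pair of number 2. Other scalings, pseudocounts, filters and left-out libraries were tried.

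Members and the 45 gene lists were chosen with earlier results of these data known. A gene of the clock list is not reported here and was left out of its counts. Genes were named by rule: up to 8 per direction without overlap between groups, 8 per direction with 3 within-number differences of one sign, the 3 largest of each list, and genes named earlier or used as lung markers. Of 77 genes named in the text and followed through the other settings, 29 outside the rule were added after their values were seen. Most of these were further members of the clock, heat shock, MHC class II and T cell lists. Of the 77, 7 overlap another listed gene in the RefSeq annotation (GRCm38.p6, which is mm10): Dbp, Nr1d1, Hspd1, Gzma, Ctsw, Cxcl10 and Ovca2. Reads may be shared where strand was not used, which is not stated. Plots used matplotlib 3.10.9, permutation tests numpy 2.4.6 and tables numpy and pandas 2.3.3, all under Python 3.11.15.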

Additional observations from a re-analysis of the deposited data

How the results depend on the processing

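The count of genes called was 0 in 17 of 20 other settings. It was 43 without both libraries numbered 1 (0 with the replicate block). With the replicate block it was 95 of 10650 genes tested when number 2 was left out (57 higher, 38 lower). Of these 95, 3 met the filter in the libraries of a single group only. The 95 held 6 of 13 cardiac muscle genes (among them Myh6 and Nppa), all higher, against 57 of 10650 over all genes. They also held 6 of 16 club and airway secretory genes (among them Bpifa1 and Ltf), all higher, and Dbp, higher, and Eln, lower. Control 2, left out here, was the highest control for Myh6, Bpifa1 and Ltf. With the block it was 8 when number 3 was left out (Dbp, Cd8b1 and Pcp4 higher, with S100a8, S100a9, Retnlg, Rbp7 and Gm20521 lower). Rbp7 met the filter only through the control libraries, so its call is not given as support. These fits rest on 2 libraries a group. Omitting any single library gave 0 calls, with a smallest adjusted p of 0.0544 (limma, without control 1). The replicate block alone changed no call in the report, but gave 468 genes at an unadjusted p under 0.05, against 16 without it. The median log2 change ranged from -0.48 (without control 1) to 0.37 (without BMSC-treated 1). Under the same omissions 4 of the 77 genes followed through the settings changed sign. Nr1d1 ranged from -0.18 (without control 1) to 1.67, Per2 from -0.10 (without control 1) to 1.37, H2-Ab1 from -0.00916 (without BMSC-treated 3) to 1.43, and Scgb1a1 from -1.86 to 0.10 (without control 3). The mitochondrial share difference ranged from -4.28 to 16.9 percentage points and that of Scgb1a1 from -10.2 to -1.17. No other of the 77 changed sign in any of the 20 settings. Further genes named in the text were not followed in this way, and the causes of these moves were not tested. Depth is unknown, so no limit for genes listed at 0 can be given.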
